A study of Mus musculus with 2 samples.

Results

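The liver makes glucose from lactate, glycerol and amino acids, stores it as glycogen, and switches both programs with feeding through insulin and glucagon. This account follows 9 genes of that system in snRNA-seq of mouse liver with metabolic dysfunction-associated steatohepatitis (MASH). They were taken by symbol, a rule without a threshold on any measured value, from a list drawn up with earlier results of these data known. They are 9 of the 32285 genes in the count tables: *Pck1*, *G6pc* and *Fbp1* (gluconeogenic enzymes), *Gys2* and *Pygl* (glycogen synthase and glycogen phosphorylase of the liver), *Slc2a2* (the glucose transporter GLUT2), *Ppargc1a* (the coactivator PGC-1α), and *Igfbp1* and *Irs2* (a secreted binding protein and an insulin receptor substrate). In textbook terms, *Pck1*, *G6pc*, *Ppargc1a*, *Igfbp1* and *Irs2* are raised in fasting by glucagon and FOXO1 and lowered by insulin. Gluconeogenesis is held to be strongest near the portal vein, and glycolysis and glutamine synthesis near the central vein.

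There were 2 libraries, 1 per genotype, both from male C57BL6/J mice. The group Flox was *Themis* flox/flox and the group HKO was *Themis* Alb-Cre, where the albumin promoter drives Cre to target hepatocytes. Both groups ate a MASH diet, rich in fat (40 kcal%) and fructose (20 kcal%) with 2% of cholesterol added, for 5 months from the age of 10 to 12 weeks. Livers of several mice of a genotype were pooled into each library, so that animals cannot be told apart, genotype cannot be told apart from any other difference between the libraries, and no test between them is possible. The labels say that food was freely available, but the feeding state and the hour of collection are unknown, and both bear on every gene described here.

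The Flox-labelled library held 58171337 UMIs in 9363 barcodes and the HKO-labelled library held 40475938 UMIs in 10748 barcodes, of which 27 barcodes were shared. Hepatocyte nuclei were told by marker UMIs and numbered 5836 and 4474, with median depths of 7439.5 and 5813.5 UMIs. The 7 hepatocyte markers summed to 6435 and 5779 CPM in them (UMIs of a gene per 1000000 UMIs of the summed nuclei), while the summed markers of each other cell type lay between 0.652 and 55.6 CPM. *Themis* itself was higher in hepatocytes of the HKO-labelled library, at 163 CPM against 246 CPM, so that these counts show no loss of it under the HKO label. Whether the counted 3′ reads lie in the deleted stretch was not analysed here. All comparisons are therefore between libraries as labelled. Ranges in parentheses are 95% intervals and cover counting error only.

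In hepatocytes, 8 of the 9 genes were higher in the HKO-labelled library and 1 was lower. The ratio of HKO to Flox was at least 1.5 for 3 genes, *Pygl*, *Ppargc1a* and *Igfbp1*, and at most the inverse of 1.5 for 0 genes. Among the 11220 genes with at least 200 hepatocyte UMIs, 7.48% were at least 1.5-fold higher and 9.83% at least 1.5-fold lower. The median log2 ratio of the 9 genes was 0.46, beside -0.02 over all of these genes, of which 5407 were above and 5813 below equality. Ranked among all of them, the 9 genes ran from percentile 42.7 (*Fbp1*) to percentile 96.8 (*Ppargc1a*). The same 3-gene count was found under each other scaling, depth, doublet, cell type and zone setting tried, and fell to 0 only when a 2-fold difference was asked for.

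**Figure D1:**
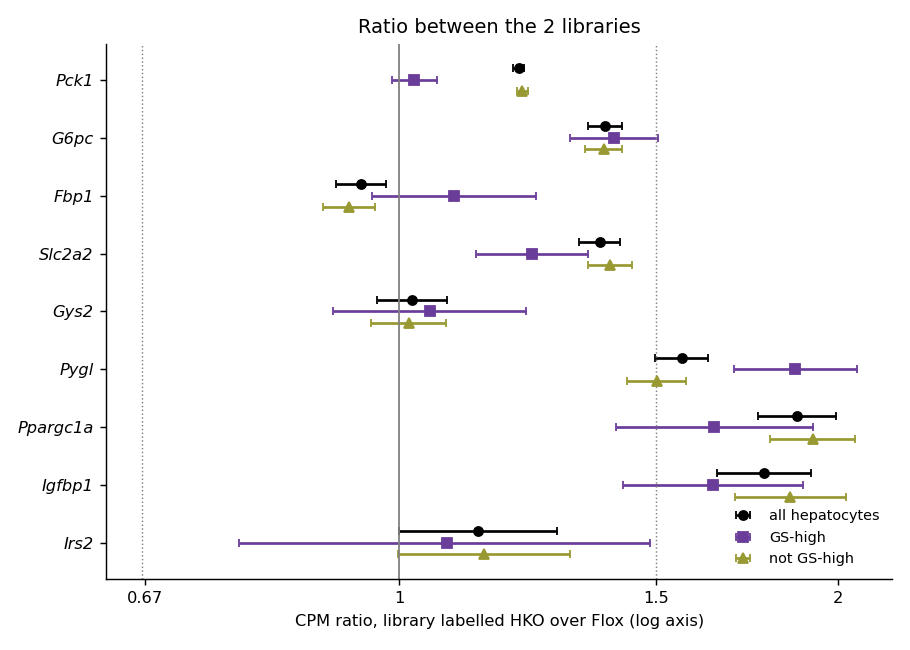
Ratio of CPM in the HKO-labelled library to the Flox-labelled library (log axis) for each of the 9 genes, in all hepatocytes (circles), GS-high hepatocytes (squares) and the others (triangles), with 95% counting intervals. The dotted lines mark 1.5-fold. *Pygl*, *Ppargc1a* and *Igfbp1* lie at or beyond the upper line in all hepatocytes, and *Fbp1* alone lies below 1.

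*Pck1* (ENSMUSG00000027513, GRCm38 chr2:173153048-173159273, plus strand) encodes the cytosolic phosphoenolpyruvate carboxykinase, which commits oxaloacetate to gluconeogenesis. Its level in hepatocytes was 2643 CPM (2628–2658) in the Flox-labelled library and 3192 CPM (3171–3213) in the HKO-labelled library, for a ratio of 1.21 (1.20–1.22). Over the settings tried this ratio lay between 1.09 and 1.24, a wider range than the counting interval. Among the gluconeogenic enzymes of the 9 genes (*Pck1*, *G6pc* and *Fbp1*), *Pck1* was the most steeply graded across the lobule. Zones were told without any of the 9 genes: a hepatocyte nucleus was GS-high, near the central vein, when *Glul* (glutamine synthetase) and *Slc1a2* together made up at least 0.1% of its UMIs. A remaining nucleus was portal-high when 7 portal landmarks such as *Hal* and *Cyp2f2* made up at least 0.1%, and the rest were low for both. GS-high nuclei numbered 1081 and 755, portal-high nuclei 1091 and 384, and nuclei low for both 3664 and 3335.

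In the Flox-labelled library, *Pck1* stood at 1197 CPM in GS-high nuclei, 2579 CPM in nuclei low for both and 4208 CPM in portal-high nuclei. In the HKO-labelled library the same zones had 1226, 3379 and 4955 CPM. Every step was wider than its counting intervals, and portal-high nuclei exceeded GS-high ones 3.52-fold (3.43–3.60) and 4.04-fold (3.91–4.18). The difference between the libraries was not of one size across zones. It was 1.02 (0.989–1.06) in GS-high nuclei, 1.31 (1.30–1.32) in nuclei low for both and 1.18 (1.15–1.20) in portal-high nuclei. Portal-high nuclei made up 18.7% of hepatocytes in the Flox-labelled library and 8.58% in the HKO-labelled library. Of the 7 portal landmarks themselves, 5 had a ratio of HKO to Flox below 1, the lowest being *Hal* (0.617) and *Cyp2f2* (0.627). The other 2 were above 1, *Cdh1* (1.10) and *Ctsc* (1.42). The portal class may therefore not hold the same share of the lobule in both libraries. The part of such a shift in the zone values was not tested.

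**Figure D2:**
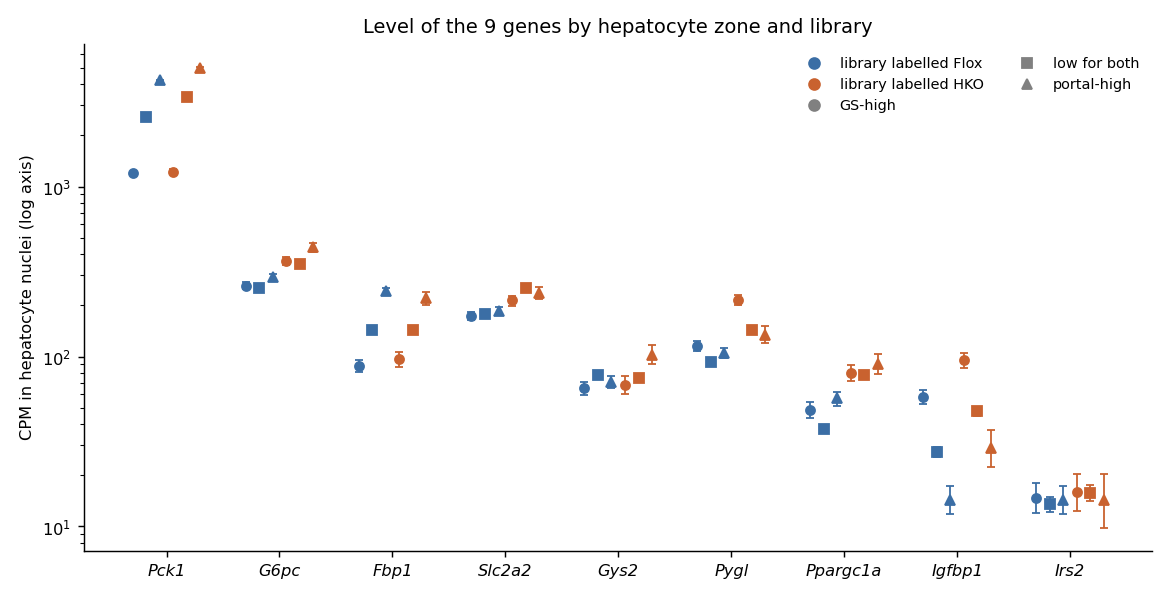
CPM of the 9 genes (log axis) in hepatocytes that were GS-high (circles), low for both zone programs (squares) or portal-high (triangles), in the Flox-labelled library (blue) and the HKO-labelled library (orange), with 95% Poisson intervals. *Pck1* and *Fbp1* climb from GS-high to portal-high nuclei in both libraries, *Igfbp1* descends, and *Irs2* and *Slc2a2* stay close to level.

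When hepatocytes of each library were ranked by portal minus central landmark share and divided into 10 bins of equal size, *Pck1* went from 1242 CPM in the most central bin to 4461 CPM in the most portal bin in the Flox-labelled library. In the HKO-labelled library it went from 1119 to 4944 CPM. The path between was not straight. In the Flox-labelled library the level reached 2293 CPM in bin 3, was 1926 CPM in bin 5 and then climbed, whereas in the HKO-labelled library bins 3 to 6 held a plateau between 2898 and 3141 CPM. By bin number the libraries thus stood apart mainly in bins 2 to 6 and less from bin 7 onward. Bins are ranks within each library, so that equal numbers are not equal positions. The median portal minus central share, in percent of UMIs, was -0.568 (Flox) and -0.407 (HKO) in bin 2. In bin 10 it was 0.143 and 0.107. The part of that shift in the bin values was not tested. Over the 20 bins of both libraries, the genes whose log2 CPM followed *Pck1* most closely were *Asl* (Pearson r 0.974), *Kynu* (0.973) and *Ftcd* (0.970), which encode enzymes of the urea cycle and of tryptophan and histidine breakdown. These correlations are descriptions over bins that share libraries and landmarks.

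**Figure D3:**
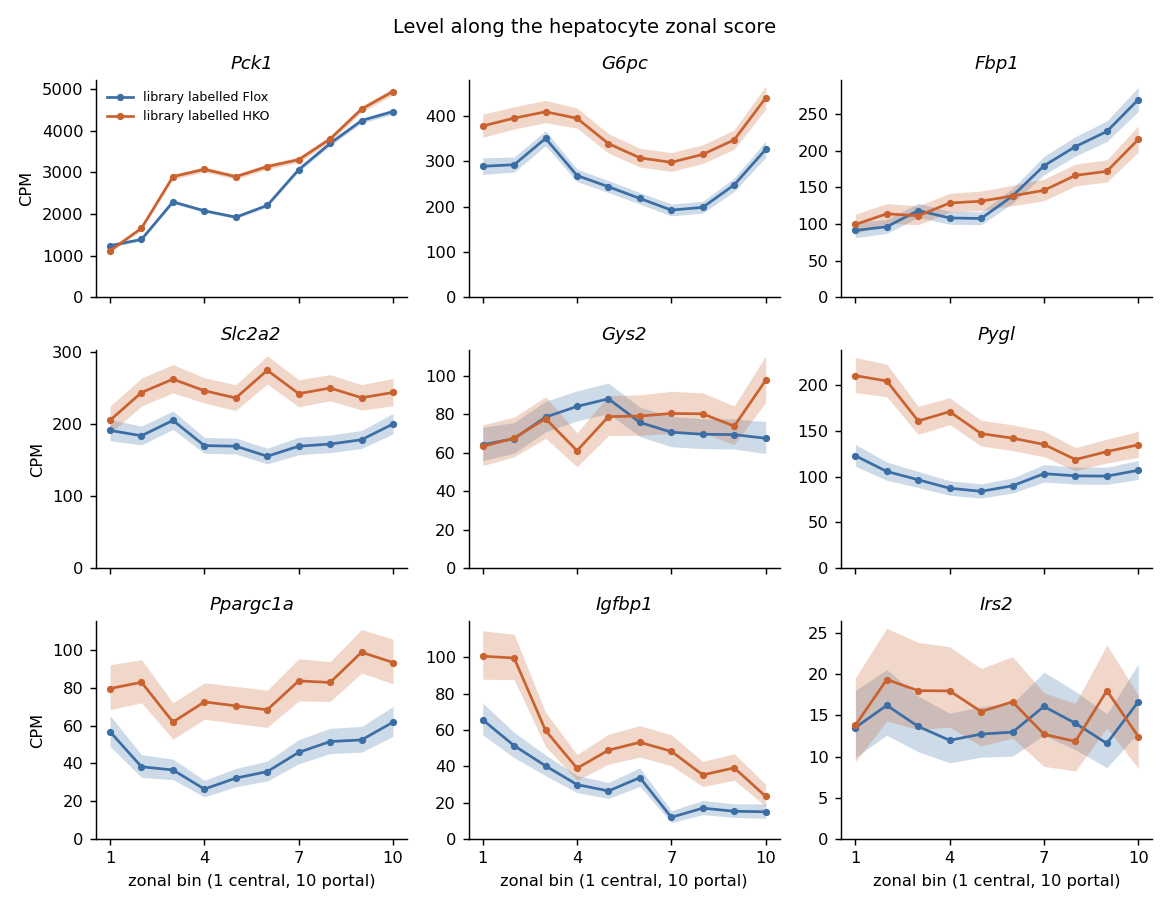
CPM of each of the 9 genes along 10 bins of hepatocytes, ordered within each library from central (1) to portal (10). The Flox-labelled library is blue and the HKO-labelled library orange, with 95% Poisson bands. *Pck1* and *Fbp1* increase toward the portal end, *Igfbp1* decreases, *G6pc* is lowest at bin 7 in both libraries, and *Pygl* declines toward the portal end in the HKO-labelled library.

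*Fbp1* (ENSMUSG00000069805, chr13:62864753-62888282, minus strand), fructose-1,6-bisphosphatase, was the only gene of the 9 below equality. It stood at 152 CPM (148–156) and 143 CPM (139–148), for a ratio of 0.942 (0.906–0.980). Its zonal direction was that of *Pck1*: 88.1 CPM in GS-high against 163 CPM in other hepatocytes of the Flox-labelled library, and 96.1 against 151 CPM in the HKO-labelled library. The GS-high level was therefore 0.539 (0.496–0.586) and 0.636 (0.571–0.706) of the other. Along the bins *Fbp1* went from 91.2 to 269 CPM and from 99.3 to 215 CPM. By bin number the small deficit of the HKO-labelled library lay mainly in bins 7 to 10, where its median portal minus central share was also lower. In nuclei low for both programs the libraries were level, at 143 and 144 CPM. The bin profile of *Fbp1* correlated with that of *Pck1* at r = 0.900.

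*G6pc* (ENSMUSG00000078650, chr11:101367561-101377903, plus strand) encodes the catalytic subunit of glucose-6-phosphatase, which releases free glucose. It was at 260.5 CPM (256–265) and 361 CPM (354–368), for a ratio of 1.38 (1.35–1.42). *G6pc* was graded far less between the zones than *Pck1* and *Fbp1*. GS-high and other hepatocytes had 261 and 260.5 CPM in the Flox-labelled library and 366 and 360 CPM in the HKO-labelled library, for ratios of 1.0 (0.951–1.05) and 1.02 (0.961–1.07). Portal-high nuclei stood slightly higher, at 293 and 438 CPM, or 1.12-fold (1.06–1.20) and 1.20-fold (1.10–1.30) above GS-high ones. Along the bins the level passed through a trough. From bin 3 to bin 7, *G6pc* went from 350 to 192 CPM in the Flox-labelled library and from 408 to 297 CPM in the HKO-labelled library. At bin 10 it was back at 326 and 439 CPM. Its profile correlated with that of *Pck1* at r = -0.20, and the nearest gene was *Sult1d1* (r 0.856).

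Although *G6pc* and *Pck1* differed in their zonal course, they went together from nucleus to nucleus. Hepatocytes with at least 2000 UMIs were thinned to 2000 UMIs each, and those low for both zone programs were divided into 4 groups of equal size by their *Pck1* UMIs. From the lowest to the highest group *G6pc* stood at 131, 199, 308 and 374 CPM in the Flox-labelled library, and at 201, 332, 403 and 466 CPM in the HKO-labelled library. The highest group exceeded the lowest 2.85-fold (2.45–3.32) and 2.32-fold (2.03–2.65). In GS-high nuclei the same ratio was 2.03 (1.59–2.60) and 1.60 (1.24–2.07). *Ppargc1a* followed as well among nuclei low for both, at 19.8 against 49.7 CPM and 56.2 against 93.6 CPM, for ratios of 2.50 (1.68–3.79) and 1.67 (1.27–2.19). *Alb*, no member of the system, had ratios of 1.73 (1.66–1.81) and 1.05 (0.995–1.11) over these groups.

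The course of *Igfbp1* over these groups depended on the zone and the library. In nuclei low for both it went from 19.8 to 42.5 CPM in the Flox-labelled library, for a ratio of 2.14 (1.42–3.28), and from 76.2 to 33.1 CPM in the HKO-labelled library, for a ratio of 0.434 (0.309–0.604). In GS-high nuclei it was higher with more *Pck1* in both, at 2.13 (1.29–3.62) and 1.44 (0.864–2.42), the second with an interval that includes 1. Over all nuclei that were not GS-high, an alternative chosen after seeing the data, the Flox-labelled ratio was 1.35 (0.947–1.94), which includes 1, and the HKO-labelled one 0.408 (0.293–0.562). *Pygl* was at 80.5 against 99.9 CPM in the Flox-labelled library and at 191 against 115 CPM in the HKO-labelled library, for ratios of 1.24 (0.992–1.55) and 0.605 (0.501–0.728). The ratio for *Slc2a2* was 1.52 (1.30–1.77) and 0.894 (0.780–1.02). For *Gys2* and *Irs2* all 4 intervals included 1. Groups were formed within each library, so that the lowest held nuclei with up to 1 *Pck1* UMI in the Flox-labelled library and up to 3 in the HKO-labelled library, and the difference between the libraries was not tested.

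*Pck1* was also widely spread over hepatocytes. At 2000 UMIs per nucleus, the variance of its counts was 4.86 and 4.34 times the mean, where counting error alone gives 1, a measure that grows with the level of a gene. It was detected in 82.8% and 85.5% of 5762 and 4279 nuclei. *G6pc* had variance-to-mean ratios of 1.78 and 2.01 and *Igfbp1* 1.95 and 1.39, with 11 *Igfbp1* UMIs in the highest nucleus of the Flox-labelled library and 3 in the HKO-labelled library. For *Gys2* the ratio was 1.04 and 1.03, close to counting error, and for the other 5 genes it lay between 1.07 and 1.20. Among other hepatocyte transcripts *Alb* had 6.75 and 4.29, *Apob* 1.76 and 1.59 and *Mlxipl* 1.30 and 1.33, so that the value of *Pck1* was matched by *Alb*. By the share of UMIs in the 10% of nuclei with most, which falls with the level, *Pck1* was less concentrated than *G6pc*, at 30.3% and 27.1% against 52.8% and 50%.

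The promoters of *Pck1*, *Igfbp1* and *Ppargc1a* are shown because these genes mark the opposite ends of the zonal gradient and the largest difference between the libraries, and because motifs of the hormone response were found in them. The sequences are from RefSeq (GRCm38.p6), 5′ to 3′ on the strand of the gene, and stop where the annotated gene begins. Capitals mark ACGTCA, the core of a cAMP response element, through which glucagon acts, or AAAACAA, the core of an insulin response element.
*Pck1*, chr2:173152823-173153047, plus strand: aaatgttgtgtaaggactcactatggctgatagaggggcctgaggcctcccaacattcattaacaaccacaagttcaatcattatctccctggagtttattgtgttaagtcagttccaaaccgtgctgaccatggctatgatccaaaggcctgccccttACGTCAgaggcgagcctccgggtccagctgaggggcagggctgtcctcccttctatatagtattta
*Igfbp1*, chr11:7197537-7197781, plus strand: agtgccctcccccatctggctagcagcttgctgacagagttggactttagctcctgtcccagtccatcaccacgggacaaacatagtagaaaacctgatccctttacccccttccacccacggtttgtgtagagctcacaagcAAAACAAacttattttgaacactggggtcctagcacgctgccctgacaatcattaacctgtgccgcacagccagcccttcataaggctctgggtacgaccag
*Ppargc1a*, chr5:51567727-51567975, minus strand: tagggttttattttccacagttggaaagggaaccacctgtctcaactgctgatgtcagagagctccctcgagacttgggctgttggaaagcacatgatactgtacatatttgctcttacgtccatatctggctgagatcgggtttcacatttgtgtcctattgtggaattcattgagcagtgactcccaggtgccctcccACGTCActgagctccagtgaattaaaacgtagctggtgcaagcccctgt

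Promoter sequence was at hand for 8 of the 9 genes, and 4 motifs were searched on both strands in the 250 bases before the RefSeq start. ACGTCA began 91 bases before the start of *Pck1* and 50 bases before that of *Ppargc1a*, and 6.47% of 32851 promoters hold it. AAAACAA was found in *Igfbp1*, 107 bases before the start, and on the opposite strand in *Irs2*, and 8.11% of promoters hold it. The TATA box TATAAA lay 29 bases before the start of *G6pc*, in atccagggcaTATAAAacaggggcaa (chr11:101367677-101367702, plus strand), and is held by 12.4% of promoters. For *G6pc* the RefSeq start differs from the GENCODE one, so that this stretch lies inside the gene span given above, which begins at 101367561. GTAAACA, a forkhead motif held by 3.17%, was in none of the 8. At least 1 of the 4 motifs was found in 5 of the 8 promoters and in 26.6% of all promoters. These are matches of letters in a short window and say nothing of binding.

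The glycogen enzymes differed from each other. *Gys2* (ENSMUSG00000030244, chr6:142422613-142473109, minus strand), the liver glycogen synthase, was at 74.4 CPM (72.0–77.0) and 76.0 CPM (72.8–79.3), for a ratio of 1.02 (0.966–1.08). *Pygl* (ENSMUSG00000021069, chr12:70190811-70231488, minus strand), the phosphorylase that breaks glycogen down, was at 98.4 CPM (95.6–101) and 154 CPM (149–158), for a ratio of 1.56 (1.5–1.63). Over the settings tried the ratio lay between 1.02 and 1.14 for *Gys2* and between 1.53 and 1.70 for *Pygl*. The intervals cover counting error only and set no bound on a difference between the genotypes. Between these libraries *Gys2* thus stood near equality and the phosphorylase apart.

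The *Pygl* difference was widest near the central vein. In GS-high nuclei *Pygl* was at 115 and 215 CPM, for a ratio of 1.87 (1.70–2.06), and in portal-high nuclei at 105 and 134 CPM, for a ratio of 1.28 (1.12–1.46). Within the HKO-labelled library the bins went from 211 CPM at the central end to 119 CPM at bin 8, and within the Flox-labelled library from 123 CPM to 84.0 CPM at bin 5 and back to 107 CPM. *Gys2* stayed between 61 and 97.6 CPM in all 20 bins. In portal-high nuclei *Gys2* was at 70.7 and 103 CPM, for a ratio of 1.45 (1.24–1.70), the only zone where its interval excluded 1.

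*Slc2a2* (ENSMUSG00000027690, chr3:28697903-28731359, plus strand) encodes GLUT2, through which glucose enters and leaves hepatocytes. It was at 178 CPM (175–182) and 245 CPM (239–251), for a ratio of 1.37 (1.33–1.42). Zones hardly differed in the Flox-labelled library, with 173 CPM in GS-high and 179 CPM in other hepatocytes, for a ratio of 0.966 (0.908–1.03). In the HKO-labelled library they stood at 214 and 250 CPM, for a ratio of 0.853 (0.793–0.917). The ratio between libraries lay between 1.23 in GS-high nuclei and 1.42 in nuclei low for both.

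*Ppargc1a* (ENSMUSG00000029167, chr5:51454250-51567726, minus strand) encodes the coactivator that drives gluconeogenic and mitochondrial genes in fasting, and it had the highest ratio of the 9 genes. Its level was 42.5 CPM (40.6–44.4) and 79.5 CPM (76.2–82.9), for a ratio of 1.87 (1.76–1.99). In nuclei low for both it was at 37.5 and 78.2 CPM, for a ratio of 2.09 (1.93–2.25), against 1.64 (1.41–1.92) in GS-high and 1.60 (1.35–1.89) in portal-high nuclei. The bins of the Flox-labelled library held 56.8 CPM at the central end, 26.4 CPM at bin 4 and 61.8 CPM at the portal end. With all nuclei at 2000 UMIs the ratio between libraries was 1.57, the lowest of the settings tried.

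*Igfbp1* (ENSMUSG00000020429, chr11:7197782-7202546, plus strand), a secreted binding protein of insulin-like growth factors that insulin represses, was the 1 gene of the 9 at least 1.5-fold higher in GS-high nuclei in both libraries. Among all genes 3.22% met that rule, and 4.33% met it in the opposite direction, as *Pck1* and *Fbp1* did. *Igfbp1* stood at 58.0 CPM in GS-high and 24.8 CPM in other hepatocytes of the Flox-labelled library, and at 95.1 and 45.9 CPM in the HKO-labelled library, for ratios of 2.34 (2.08–2.63) and 2.07 (1.84–2.33). In portal-high nuclei it was down to 14.4 and 29.1 CPM. Along the bins it went from 65.6 to 14.9 CPM and from 101 to 23.4 CPM, and its profile was the mirror of that of *Pck1* (r = -0.91).

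The difference of *Igfbp1* between the libraries held in every zone. Over all hepatocytes it was at 29.8 CPM (28.3–31.5) and 53.1 CPM (50.4–55.9), for a ratio of 1.78 (1.65–1.92). The ratio was 1.64 (1.42–1.89) in GS-high nuclei, 1.74 (1.59–1.91) in nuclei low for both and 2.03 (1.47–2.78) in portal-high nuclei, intervals that overlap. The number of hepatocytes with *Igfbp1* was small, 5.28% and 8.97% of nuclei at 2000 UMIs. Its nearest genes over the bins were *Tmc6* (r 0.948), *Rdh9* (0.942) and *Mpped2* (0.939).

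*Irs2* (ENSMUSG00000038894, chr8:10984681-11008458, minus strand), which carries the insulin signal from the receptor, was at 13.8 CPM (12.8–14.9) and 15.7 CPM (14.2–17.2). The ratio was 1.13 (1.0–1.28), at the edge of what 636 and 431 UMIs can show. No zone stood apart, with GS-high to other ratios of 1.08 (0.868–1.34) and 1.02 (0.769–1.33). *Irs2* therefore did not share the gradient of *Igfbp1*, although both are counted as targets of FOXO1.

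Outside hepatocytes, most of the 9 genes were far below their hepatocyte level, but *Slc2a2*, *Ppargc1a*, *Pygl* and *Irs2* each had another cell type in which they stood well above endothelial nuclei. Endothelial nuclei served as the reference, since free hepatocyte RNA can enter any droplet. In them *Pck1* was at 135 and 94.0 CPM, 0.0509 and 0.0295 of the hepatocyte level (87.5 and 90.5 CPM with a stricter cell type rule), *G6pc* at 26.1 and 23.5 CPM, *Fbp1* at 37.5 and 36.4 CPM, and *Slc2a2* at 19.6 and 23.5 CPM. Nuclei of cell types were named by resemblance to marker lists, and 5.32% and 12.7% of nuclei stayed without a name.

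In cholangiocyte nuclei (70 and 286), which line the bile ducts, *Slc2a2* was at 409 CPM (308–534) and 243 CPM (198–296), from 54 and 99 UMIs. That was 20.9 times (12.7–35.4) and 10.3 times (6.85–16.0) the endothelial level, and 2.29 times (1.72–3.0) and 0.992 times (0.805–1.21) the hepatocyte level. After thinning to 1000 UMIs, *Slc2a2* was detected in 29.0% of 69 and 19.6% of 230 cholangiocyte nuclei, beside 1.45% of 688 and 2.30% of 566 endothelial nuclei and 15.9% and 22.1% of hepatocytes. Unthinned, the median nucleus held 1842 and 1339.5 UMIs among cholangiocytes and 1343 and 970 UMIs among endothelial cells. Among the same cholangiocyte nuclei, *Pck1* was at 45.5 and 58.9 CPM, below its endothelial level, and *G6pc* at 22.7 and 7.37 CPM, from 3 UMIs in each library. Other hepatocyte transcripts were higher in cholangiocyte than in endothelial nuclei, the 7 hepatocyte markers at 2669 and 1365 CPM against 1622 and 1243 CPM and *Alb* at 2191 and 970 CPM against 1170 and 826 CPM. Their part in the *Slc2a2* level was not tested.

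*Ppargc1a* was the second of the 9 genes found in cholangiocyte nuclei, at 60.7 CPM (26.2–120) and 71.2 CPM (47.7–102), from 8 and 29 UMIs. The endothelial level was 1.63 and 3.03 CPM, from 2 and 4 UMIs. The share of nuclei with a UMI after thinning was 5.80% and 5.22%, beside 0.291% and 0.177% in endothelial nuclei. *Gys2* had 0 UMIs in cholangiocyte nuclei of both libraries, where 3 UMIs would be 22.7 and 7.37 CPM.

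*Pygl* stood out in macrophages, at 65.9 CPM (51.5–83.1) and 65.0 CPM (53.2–78.6), from 71 and 106 UMIs. It was 6.22 times (3.41–12.2) and 5.72 times (3.31–10.6) its endothelial level of 10.6 and 11.4 CPM, and was detected after thinning in 7.13% and 7.39% of macrophage nuclei, beside 0.727% and 1.24% of endothelial nuclei. Between the libraries the macrophage ratio was 0.987 (0.724–1.35), beside 1.56 in hepatocytes. With the stricter cell type rule, macrophages held 26 *Pygl* UMIs of 422034 in the Flox-labelled library and 43 of 630636 in the HKO-labelled library. The intervals cover counting error only, and the difference between the 2 cell types was not tested. *Irs2* was as high in hepatic stellate cells (HSCs) as in hepatocytes, at 12.9 and 14.8 CPM from 20 and 26 UMIs, and its endothelial level was 0.816 and 3.03 CPM from 1 and 4 UMIs. Macrophages held *Irs2* too, at 7.43 CPM (3.21–14.6) and 11.7 CPM (7.02–18.2), from 8 and 19 UMIs. After thinning, 0.648% and 1.02% of macrophage nuclei had an *Irs2* UMI. The share of HSC nuclei with an *Irs2* UMI after thinning was 0.994% and 1.32%, beside 0 of 688, which allows up to 0.436% by a floor of 3 nuclei, and 0.353% in endothelial nuclei.

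**Figure D4:**
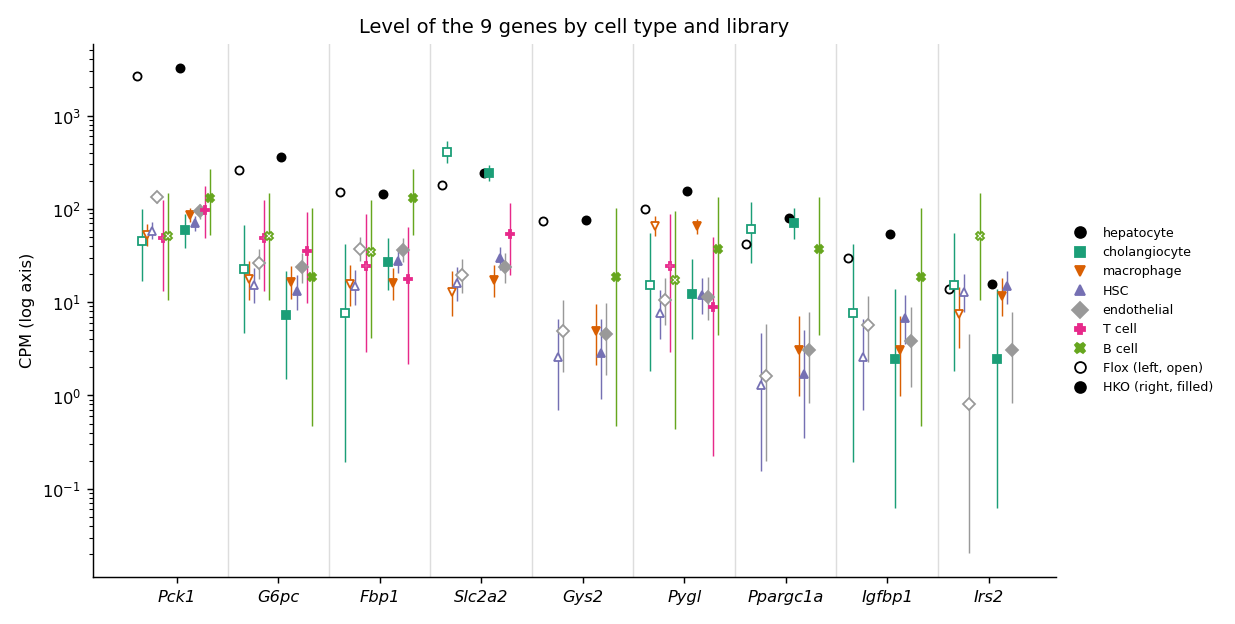
CPM of the 9 genes (log axis) by cell type, with 95% Poisson intervals, for the Flox-labelled library (left of each gene, open) and the HKO-labelled library (right, filled). Types with 0 UMIs are not drawn. Cholangiocytes sit with hepatocytes for *Slc2a2* and *Ppargc1a*, and macrophages approach them for *Pygl*. HSCs match them for *Irs2*, with macrophages somewhat lower, and the remaining points lie well below hepatocytes or rest on few UMIs.

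Of 23 relatives of the 9 genes, 6 had their highest mean level of 7 cell types in hepatocytes, and 17 had it elsewhere, often on few UMIs. *Slc2a9* (44.0 and 46.8 CPM) and *Igfbp2* (63.1 and 48.4 CPM) were among the 6. *Pck2*, the mitochondrial counterpart of *Pck1*, was at 60.7 and 81.0 CPM in cholangiocytes and 51.4 and 57.5 CPM in HSCs, beside 3.65 and 3.64 CPM in hepatocytes. Its level in B cells, 102 CPM (37.6–223) and 148 CPM (63.8–291), rests on 6 and 8 UMIs, and the intervals overlap those of cholangiocytes. *Pygb*, the brain-type phosphorylase, was at 15.8 and 11.0 CPM in macrophages and under 1 CPM in hepatocytes. *Slc2a3* was highest in T cells (121 and 98.3 CPM, from 10 and 11 UMIs), *Igfbp3* in HSCs (741 and 521 CPM) and *Igfbp7* in endothelial cells (1076 and 743 CPM). Of the 14 relatives with at least 200 hepatocyte UMIs, 0 were at least 1.5-fold higher in hepatocytes of the HKO-labelled library and 3 were lower, *Slc2a1*, *Slc2a5* and *Igfbp5*, at ratios of 0.651, 0.489 and 0.330. Among all genes 7.48% were higher and 9.83% lower by this rule.

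The wider pathways of the 9 genes were counted by the same rule in hepatocytes. Over all genes, 7.48% were at least 1.5-fold higher and 9.83% at least 1.5-fold lower. Of 23 other gluconeogenic enzymes and carriers, 7 were at least 1.5-fold higher in the HKO-labelled library, 0 lower and 16 neither, with a median log2 ratio of 0.23. *Got1* (aspartate aminotransferase) was at 61.3 and 120 CPM, *Slc16a1* (lactate carrier) at 12.2 and 21.1 CPM, and *Gk* (glycerol kinase) at 233 and 378 CPM. At the other end, *Tpi1* was at 99.4 and 75.3 CPM and *Gpd1* at 34.5 and 26.6 CPM. Of 15 further glycogen genes, 6 were higher, 1 lower and 8 neither, with a median of 0.42. The branching enzyme *Gbe1* was at 203 and 460.1 CPM and *Ugp2*, which makes the UDP-glucose for synthesis, at 211 and 357 CPM, whereas *Pgm1* was at 64.8 and 42.2 CPM. *Ppp1r3g*, a glycogen-targeting phosphatase subunit, had the highest ratio, 3.37 (2.50–4.59), at 1.46 and 4.91 CPM. *Gbe1* and *Ugp2*, which serve synthesis, thus stood on the side of *Pygl*, and *Gys2* did not.

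Among 14 genes of glucose use and its control, 6 were higher, 1 lower and 7 neither, with a median log2 ratio of 0.40. The shares of all genes were 7.48% higher and 9.83% lower. The list holds inhibitors of glucose use too, such as the kinase *Pdk4*. It was 1 of the 6, at a ratio of 1.61, and also stands in the fasting list below. *Pklr*, liver pyruvate kinase and the opposite number of *Pck1*, was at 25.1 and 114 CPM, for a ratio of 4.53 (4.23–4.85). *Hk2*, a hexokinase, was at 7.42 and 27.8 CPM. Of 37 genes of insulin and glucagon signalling and its transcription factors, 4 were higher, 2 lower and 31 neither, with a median of 0.10. The 4 were *Trib3* (ratio 1.89), *Sik1* (1.70), *Pik3r1* (1.63) and *Prkaa2* (1.51), and *Nr0b2* (0.463) was among the 2. Of all genes 17.3% passed in either direction, and the counts of this signalling list were near that share. *Creb3l3*, a glucagon and fasting factor, was at 462 and 321 CPM, for a ratio of 0.694.

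Since the feeding state is unknown, genes that textbooks place in fasting or feeding were counted beside the 9. For comparison, 7.48% of all genes were at least 1.5-fold higher and 9.83% at least 1.5-fold lower. Of 15 genes held to be higher in fasting, 4 were at least 1.5-fold higher in the HKO-labelled library, 1 lower and 10 neither, with a median log2 ratio of 0.13. *Lpin1* was at 173 and 400.3 CPM, *Tat* at 530 and 818 CPM and *Acot1* at 33.6 and 17.3 CPM. Of 14 genes held to be higher in feeding, 12 were higher, 0 lower and 2 neither, with a median of 0.82. *Fasn* was at 35.4 and 89.6 CPM, *Acaca* at 129 and 318 CPM and *Ccnd1* at 18.4 and 73.0 CPM, while the exceptions were *Elovl6* (77.2 and 88.7 CPM) and *Mlxipl* (1482 and 1528 CPM), a marker used to tell hepatocytes. *Ppargc1a* and *Igfbp1*, which insulin lowers, and the feeding list, which insulin raises, were therefore higher in the same library.

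Clock genes, which follow the time of day, were counted too. Of 10, 2 were at least 1.5-fold higher, 0 lower and 8 neither, beside 17.3% of all genes in either direction. *Nr1d1* was at 41.4 and 64.2 CPM, *Nr1d2* at 127 and 196 CPM, *Per1* at 73.9 and 104 CPM and *Cry1* at 10.1 and 7.02 CPM. The part of feeding and of the hour of collection in the values of the 9 genes was not tested.

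**Figure D5:**
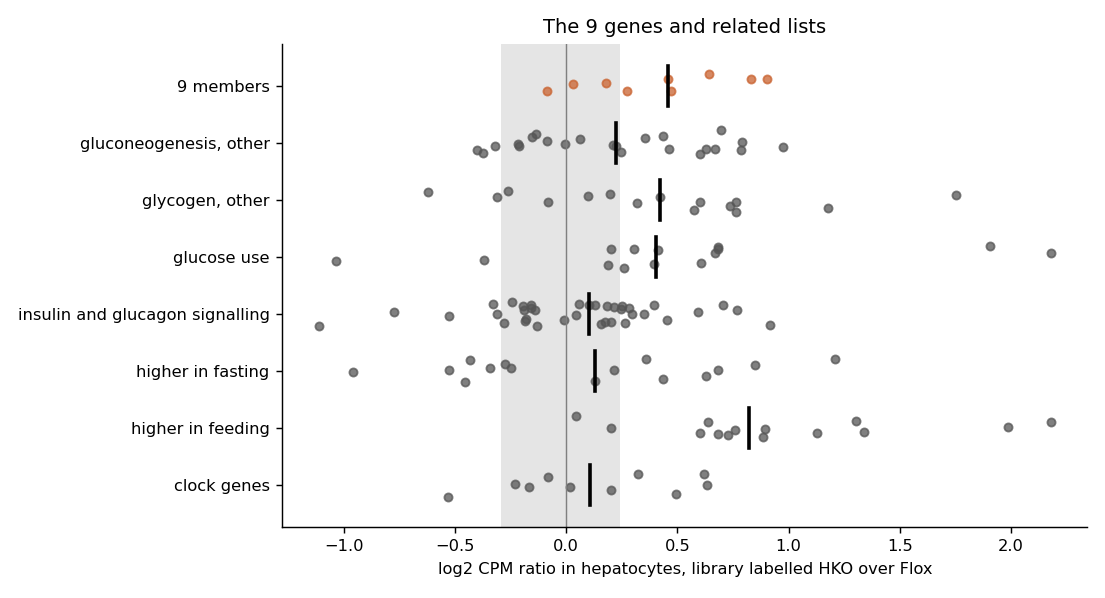
Log2 ratio of CPM in hepatocytes, library labelled HKO over the Flox-labelled library, for the 9 genes (orange) and for each gene with at least 200 UMIs of the related lists (grey), with a bar at the median of each row. The shaded band spans the quartiles of all 11220 genes, from -0.29 to 0.24. The feeding list lies to the right of the band for 12 of 14 genes, and the 9 genes have a median of 0.46.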

How the data were processed

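The deposited values are raw UMI counts by gene and barcode, for which the authors had run Cell Ranger 8.0.1 against GRCm38, leaving out intronic reads. The counts carry no normalization. Barcodes with at least 300 detected genes were kept, and the 701 and 920 highest-scoring doublets were removed with Scrublet in Scanpy 1.11.5, at 0.8% per 1000 barcodes, which left 8659 and 9801 nuclei. In their own analysis the authors removed doublets with DoubletFinder and by hand, after the step that gave count matrices, and the deposited ones still hold 3 and 27 barcodes below the 300 genes they asked for. Libraries are named Flox and HKO after the genotype labels, although the Flox title also carries WT. Liver tissue was snap-frozen and nuclei were sorted before 3′ libraries were made on the 10x platform.

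A nucleus was named hepatocyte when hepatocyte markers took at least 0.2% of its UMIs and markers of every other type under 0.1%. It took another type's name at 0.3% and 2 UMIs or more of that type's markers, with at least 2 times the UMIs of the next. These limits were set after the spread of marker shares had been seen. UMIs were summed per library, type or zone and given as CPM. Intervals are exact Poisson for CPM, exact conditional binomial for ratios and Clopper-Pearson for shares, and a share of 0 has the limit that 3 nuclei would give. No test was run, because each genotype has 1 library and nuclei are not replicates. Ratios and intervals were tested on simulated data with known folds, drawn with counting error alone. That simulation holds no spread between nuclei or animals, so it checks the calculation and not whether the intervals are wide enough for these data.

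For shares of nuclei with a UMI, each nucleus was thinned to 1000 UMIs and shallower ones were left out, 24 and 41 hepatocytes, 118 and 698 endothelial nuclei, and 1 and 56 cholangiocytes. Nuclei with equal *Pck1* UMIs were divided between groups in file order. Near the limit of the GS-high class, between its 0.5-fold and 2-fold, lay 269 and 198 hepatocytes, and near that of the portal-high class 2099 and 1127. Named were all 9 genes, and of each list up to 4 genes with the highest and 4 with the lowest ratio, of which the text gives a part and some are not reported here. The 9 genes and the lists were chosen with earlier results of these data known. Gene positions are from GENCODE on GRCm38. TMM scaling, 1 of the alternatives, used edgeR 4.0.16 in R 4.3.3.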

Additional observations from a re-analysis of the deposited data

Results flagged for a closer look

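*Igfbp1* went opposite ways in the 2 libraries when hepatocytes low for both zone programs were ordered by their *Pck1* UMIs. Of 4 groups of equal size, the one with most *Pck1* had 2.14 times the *Igfbp1* of the one with least in the Flox-labelled library (42.5 against 19.8 CPM) and 0.434 times in the HKO-labelled library (33.1 against 76.2 CPM). This was not so in GS-high nuclei, at 2.13 (1.29–3.62) and 1.44 (0.864–2.42), and over all nuclei that were not GS-high the Flox-labelled ratio was 1.35 (0.947–1.94). With 1 library on each side the difference between them was not tested.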

How the results depend on the processing

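With 1 library per genotype no replicate could be left out, and cholangiocytes of the Flox-labelled library rest on 70 nuclei, where 3 UMIs are 22.7 CPM. Across the settings tried (doublets kept, 500 genes per nucleus, TMM, another denominator, thinning to 2000 UMIs, a stricter cell type rule, equal zone weights, means over nuclei, a pseudocount, other zone limits), the counts of 3 genes higher between libraries and of 1 and 2 genes between zones were the same. Asking for 2-fold took the first to 0 and the count lower in GS-high nuclei to 1. No called ratio of the 9 genes changed sides. In 68 of 81 cases the ratios between libraries, and in 117 of 126 the zone ratios, stayed within their counting intervals, and *Ppargc1a* moved between 1.57 and 1.89, *Igfbp1* between 1.61 and 1.79 and *Pygl* between 1.53 and 1.70. With at least 20 UMIs per gene the share of all genes 1.5-fold higher was 12.8%, and lower in GS-high nuclei 7.59%. With at least 1 UMI in each library these were 19.1% and 13.7%, 33.7% in either direction and 5.15% higher in GS-high nuclei. The stricter cell type rule put *Pck1* in Flox-labelled endothelial nuclei at 87.5 CPM and *Ppargc1a* in Flox-labelled cholangiocytes at 187 CPM, where it left 6 nuclei and 2 UMIs. With all nuclei that were not GS-high, an alternative chosen after seeing the data, the *Igfbp1* ratio between the highest and the lowest *Pck1* group was 1.35 (0.947–1.94) and 0.408 (0.293–0.562). No paired analysis was possible because each genotype has a single library.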
